A study of Homo sapiens with 6 samples.

Results

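The regions described here are the 2236 stretches of the genome at which TLE3 was called in both libraries with FOXA1 silenced and in 1 of the 2 control libraries, siNS 2, but not in the other, siNS 1. They were selected by the presence of peaks: the peak lists of siNS 1, siNS 2, siFOXA1 1 and siFOXA1 2 were merged wherever peaks shared at least 1 bp on chromosomes 1 to 22 and X, and a merged region was kept when it held a peak of siFOXA1 1, siFOXA1 2 and siNS 2 and none of siNS 1. They make up 3.09% of the 72272 merged regions and 27.3% of the 8205 regions with a peak of both siFOXA1 libraries. Membership is therefore a description of the lists and was not tested.

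Binding of TLE3 was assayed by ChIP-seq, the sequencing of DNA that an antibody to TLE3 brings down with chromatin, in the established human breast cancer cell line MDA-MB-453. The siFOXA1 libraries came from cells with transient silencing of FOXA1, and the siNS libraries from cells without it, with 2 libraries in each group, which the labels call biological replicates; the time after silencing is not stated. All cells received an additional cross-linking reagent before formaldehyde. The comparison asks how far TLE3 binding requires FOXA1. No list gives reads, so the depth of each library is unknown, and neither the level of FOXA1 nor any cell marker was measured by these lists.

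TLE3 belongs to the Groucho/TLE corepressors, which do not bind DNA by themselves. Transcription factors such as TCF/LEF, RUNX, HES and forkhead proteins carry a short motif or domain that recruits them, and the corepressor in turn engages histone deacetylases. FOXA1 is a forkhead pioneer factor that opens chromatin at distal enhancers of luminal breast cells, and TLE3 is known to accompany it at such sites.

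The control libraries stood apart from each other with respect to the silenced ones. Of the 3954 regions found in exactly 3 of the 4 libraries, 2236 lacked siNS 1 (56.6%), 884 lacked siFOXA1 1 (22.4%), 749 lacked siFOXA1 2 (18.9%) and 85 lacked siNS 2 (2.15%). The class that mirrors the one described here, with a peak of both siFOXA1 libraries and of siNS 1 but none of siNS 2, thus held 85 regions, or 1.04% of the regions with both siFOXA1 peaks, and the ratio of the class sizes was 26.3. The siNS lists were of similar length, with 45105 peaks used for siNS 1 and 46586 for siNS 2, and the siFOXA1 lists held 12249 and 13754. When each list was reduced to its best-scoring peaks, as many as the shortest list holds, the classes held 1498 and 67 regions. All 2236 regions rest on siNS 2. Without siNS 1 in the rule, 4837 regions had a peak of both siFOXA1 libraries and of siNS 2.

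**Figure D1:**
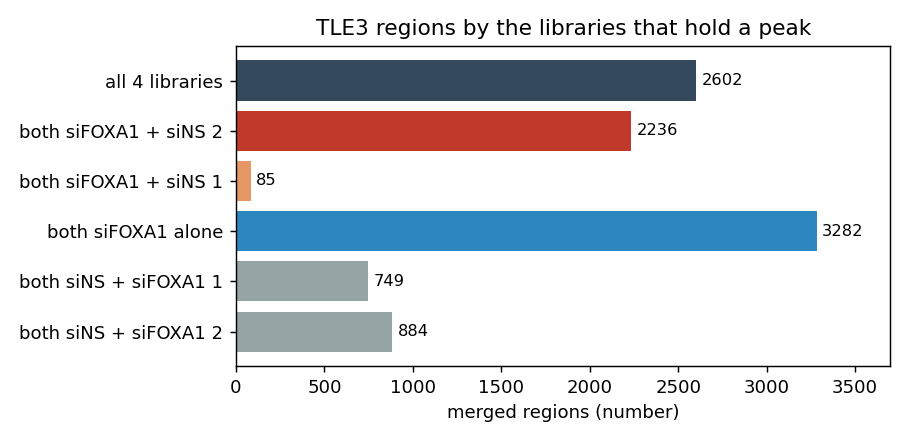
Number of merged regions (x axis) for 6 combinations of libraries with a peak (y axis). The bar for both siFOXA1 libraries with siNS 2 reaches 2236, and the bar for both siFOXA1 libraries with siNS 1 reaches 85.

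For a minority of the regions reference sequence was available, namely the 15 that cover an annotated start of a protein-coding gene (sequences from RefSeq on GRCh38.p14, a patch release of the hg38 assembly). The 250 bases before the start of 6 genes, printed 5′ to 3′ on the strand of the gene, are shown: DMBT1 because its region ranked highest among the 15, and 5 of the 8 genes whose window holds letters of a forkhead site (TGTTTAC or TGTTTGC) or of an AP-1 site (TGANTCA). Capitals mark those letters, found on either strand, and a window without capitals holds none.
DMBT1, chr10:122560504-122560753, plus strand: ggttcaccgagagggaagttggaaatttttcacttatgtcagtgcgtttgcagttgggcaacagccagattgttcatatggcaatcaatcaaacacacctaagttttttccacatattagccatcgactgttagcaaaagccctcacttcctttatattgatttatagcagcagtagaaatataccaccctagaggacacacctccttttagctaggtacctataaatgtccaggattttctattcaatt
DEFB132, chr20:257474-257723, plus strand: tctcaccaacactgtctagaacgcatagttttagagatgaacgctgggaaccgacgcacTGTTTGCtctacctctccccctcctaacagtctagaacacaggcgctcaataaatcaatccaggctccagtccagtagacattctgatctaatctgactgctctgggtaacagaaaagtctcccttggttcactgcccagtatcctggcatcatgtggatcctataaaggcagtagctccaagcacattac
NCOA7, chr6:125919005-125919254, plus strand: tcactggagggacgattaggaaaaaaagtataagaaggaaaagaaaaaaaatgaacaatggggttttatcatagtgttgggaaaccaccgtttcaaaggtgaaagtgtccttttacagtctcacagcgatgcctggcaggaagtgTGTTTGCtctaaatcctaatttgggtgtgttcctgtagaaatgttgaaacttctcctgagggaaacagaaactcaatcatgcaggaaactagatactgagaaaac
CXCL8, chr4:73740319-73740568, plus strand: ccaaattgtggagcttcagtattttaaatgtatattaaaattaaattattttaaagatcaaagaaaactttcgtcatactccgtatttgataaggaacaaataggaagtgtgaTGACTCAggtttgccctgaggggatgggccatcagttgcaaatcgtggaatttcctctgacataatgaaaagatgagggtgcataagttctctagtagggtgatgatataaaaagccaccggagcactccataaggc
ANKRD22, chr10:88851845-88852094, minus strand: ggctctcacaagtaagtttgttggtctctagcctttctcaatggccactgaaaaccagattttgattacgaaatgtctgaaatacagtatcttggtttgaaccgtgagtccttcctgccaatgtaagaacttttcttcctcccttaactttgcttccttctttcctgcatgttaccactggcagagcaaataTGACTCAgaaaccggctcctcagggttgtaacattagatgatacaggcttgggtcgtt
SLC30A10, chr1:219959099-219959348, minus strand: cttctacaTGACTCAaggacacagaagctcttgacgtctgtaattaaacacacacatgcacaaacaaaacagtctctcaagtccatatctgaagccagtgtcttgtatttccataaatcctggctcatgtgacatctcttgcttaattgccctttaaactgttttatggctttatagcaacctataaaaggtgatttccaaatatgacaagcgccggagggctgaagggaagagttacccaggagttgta

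Among the 15, the region at DMBT1, which encodes a secreted scavenger-receptor glycoprotein of epithelia, had the highest mean percentile (chromosome 10, 122560074 to 122560764), with peak scores of 138 in siNS 2, 32.2 in siFOXA1 1 and 39.8 in siFOXA1 2. The region at DEFB132, a beta-defensin gene, scored 62.5, 20.6 and 41.4 in the same order, and the one at STS, the steroid sulfatase, scored 21.5, 36.2 and 38.3. At CXCL8, the neutrophil chemokine interleukin-8, the scores were 29.5, 15.7 and 15.6. The region at SLC30A10, a manganese exporter, ranked far higher in the siFOXA1 lists (percentiles 97.8 and 98.0) than in siNS 2 (percentile 52.8). That at ANKRD22 had the opposite order for siFOXA1 1, with percentiles of 94.0 in siNS 2, 40.2 in siFOXA1 1 and 86.8 in siFOXA1 2. BBOX1, which makes carnitine, scored 37.9, 16.5 and 13.7. The other 8 starts were those of FNIP2, TMPRSS11F, NCOA7, CAMK4, SCOC, ST3GAL6, LIMA1 and PLAC1. Among all 15 the nearest siNS 1 peak lay 70 bp away at CAMK4 and 147454 bp away at TMPRSS11F.

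The covered starts were poorer in GC than the median promoter. The 16 windows at these 15 regions (SCOC has 2 overlapping ones) had a median GC content of 43.2% and a median of 3 CpG dinucleotides, against 62% and 16 over 22011 windows of protein-coding genes. Windows at starts covered in all 4 libraries had 67.6% GC and 23 CpG (n = 234), as did those covered in both siNS libraries alone (n = 10154), and those covered in both siFOXA1 libraries alone had 38.4% and 2 (n = 11). AP-1 letters stood in 5 of the 16 windows (31.2%), namely those of CXCL8, ANKRD22, SLC30A10, BBOX1 and TMPRSS11F, against 5.36% of all windows. Among windows within the GC range of these 16 (37.6 to 49.2%), a comparison chosen after the first shares were seen, 10.2% of 3381 held them. Within that range the shares were 4 of 13 for starts covered in all 4 libraries, 2 of 7 for those of both siFOXA1 libraries alone, and 23 of 299 for those of both siNS libraries alone. The forkhead letters TGTTTAC stood in 1 window (PLAC1) and TGTTTGC in 2 (DEFB132 and NCOA7), against 2.46% and 2.75% of all windows and 5.32% and 5.56% of those in the GC range.

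The other letters searched stood in at most 3 of the 16 windows. GATA letters (AGATAA) stood in 1 window against 7.10% of all, TCF/LEF letters (CTTTGAT) in 1 against 1.79%, and RUNX letters (TGTGGTT) in none against 3.13%. Of the ETS letters, CCGGAAGT stood in 1 window against 4.37% and ACAGGAAG in none against 2.35%. Grainyhead letters (AACCNGTT) were in 1 against 1.42% and CTCF core letters (AGNNGGCAC) in 1 against 3.77%. AP-2 letters (GCCNNNGGC) were in none against 23.4%, and the HES letters CACGTG and CACGCG in none against 7.35% and 12.1%. All letters here are set only against all windows, whose median GC content was 62%, against 43.2% for the 16. No share within the GC range was taken for them, and the part of GC content was not tested. At starts covered in both siFOXA1 libraries alone, AP-2 letters stood in 1 of 11 windows, GATA letters in 6 and the HES letters in none. The single steroid-receptor site AGAACA was in 3 windows against 9.85%. The longer forkhead letters, the paired steroid-receptor and oestrogen-receptor sites and the paired NFI site were in none of the 16, and in 0.65%, none, none and 0.0273% of all windows. Both strands were searched, the longer forkhead letters contain TGTTTAC, the paired steroid-receptor site contains AGAACA, and a match describes letters and not binding.

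The higher a siNS 2 peak ranked, the more often a region that siNS 1 lacked was shared with both siFOXA1 libraries. In all, 19075 regions held a peak of siNS 2 and none of siNS 1, and 11.7% of them had a peak of both siFOXA1 libraries (exact 95% binomial interval 11.3 to 12.2%). The share was 1.85% in the lowest decile of siNS 2 scores, 10.7% in the fifth, 28.1% in the eighth, 37.5% in the ninth and 54.9% in the highest (50.9 to 58.9%, 339 of 617 regions). A peak of at least 1 siFOXA1 library was present in 71.5% of those 617. In the reverse direction, 18931 regions held a peak of siNS 1 and none of siNS 2, and 0.449% of them had a peak of both siFOXA1 libraries (0.359 to 0.555%). That share was 0.256% in the lowest decile of siNS 1 scores, 0.873% in the sixth and 0.786% in the seventh. The upper deciles held few such regions: the share was 1.56% in the eighth (0.190 to 5.53%, 2 of 128 regions) and 0 of 19 in the ninth (0 to 17.6%). No region in the highest decile of siNS 1 scores lacked a siNS 2 peak. The highest score of a region found in siNS 1 alone was 50.2, in a list that reached 790. That of a region found in siNS 2 alone was 242, in a list that reached 696. Regions are not replicates of a condition, so these intervals cover counting error over regions and not variation between cultures, and no p-value is given.

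**Figure D2:**
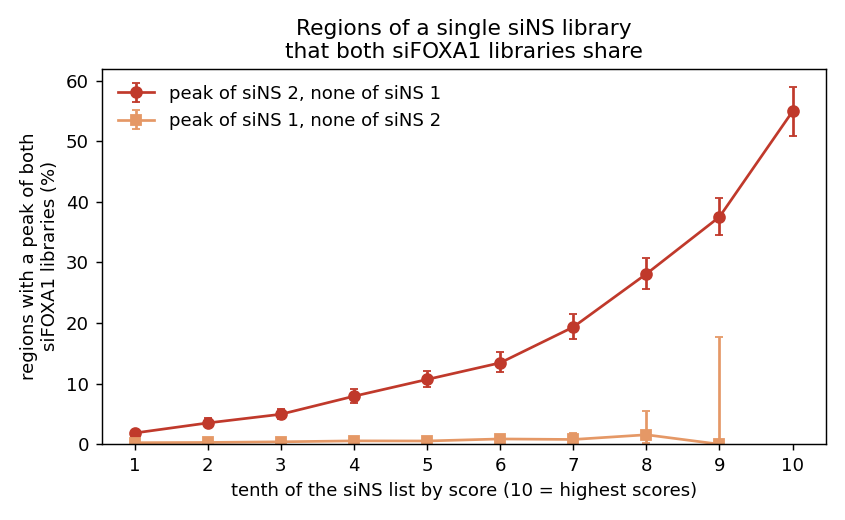
Share of regions with a peak of both siFOXA1 libraries (y axis, percent) by decile of the siNS peak score (x axis), for regions of siNS 2 without siNS 1 (circles) and of siNS 1 without siNS 2 (squares), with exact 95% binomial intervals. The circles climb from 1.85% to 54.9%. The squares go from 0.256% to 1.56% in the eighth decile, which holds 128 regions, and end at the ninth, which holds 19.

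The regions were of middle to high rank in each of the 3 lists that hold them. A peak's score is the authors' own and its definition is not stated, so scores are given as percentiles within a list, where 100 is the highest. The median percentile was 67.5 in siNS 2 (quartiles 43.4 and 84.1), 66.1 in siFOXA1 1 (43.5 and 84.5) and 68.6 in siFOXA1 2 (45.5 and 85.6). As scores, the medians were 19.4, 13.1 and 15.3 and the highest values 383, 241 and 284. In the siFOXA1 lists they ranked below the regions of all 4 libraries (medians 71.0 and 70.8) and above those of both siFOXA1 libraries alone (57.7 and 62.3). In siNS 2 the regions of all 4 libraries had a median percentile of 93.9, and siNS 2 ranked above siFOXA1 1 at 86.3% of them. At the regions described here siNS 2 ranked above siFOXA1 1 in 52.1% of cases and above siFOXA1 2 in 49.8%. The 85 mirror regions had a median percentile of 35.7 in siNS 1, although they stood at 70.7 and 73.0 in the siFOXA1 lists. These scores come from the lists that chose the regions and are descriptions.

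**Figure D3:**
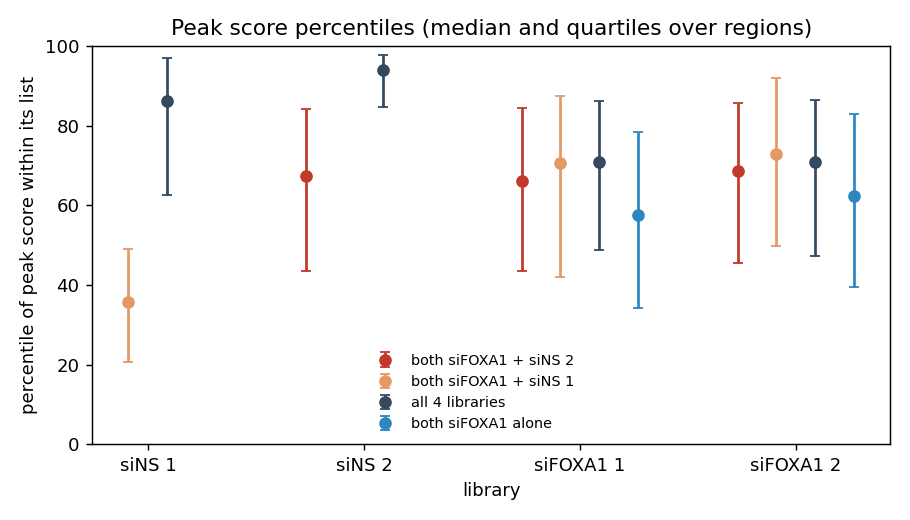
Percentile of the peak score within its own list (y axis) for each library (x axis), as the median over regions with the quartiles as bars, by class of region. The regions of both siFOXA1 libraries with siNS 2 have medians of 66.1 to 68.6 in all 3 lists that hold them, and the mirror class stands at 35.7 in siNS 1.

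The share of such regions depended little on how strong the siFOXA1 peaks were. When the 8205 regions with both siFOXA1 peaks were divided into deciles by their mean siFOXA1 percentile, the class described here took 24.6% of the lowest decile and 29.0% of the highest, with a range of 24.3 to 29.2%. Regions of both siFOXA1 libraries alone went from 48.8% of the lowest decile to 31.8% of the highest, and regions of all 4 libraries from 26.0% to 37.1%. Over the 2236 regions, scores of siFOXA1 1 and siFOXA1 2 had a Spearman correlation of 0.68, and siNS 2 had 0.21 with each of them. Over the 2602 regions of all 4 libraries these values were 0.72, 0.35 and 0.32. The points of each correlation are regions that share their 2 libraries, so it is given without a p-value.

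Overlap of the peaks is part of the rule, and the distances between them describe it. In 2155 regions (96.4%) each of the 3 lists contributed exactly 1 peak. The centre of the best siNS 2 peak was a median of 80 bp from that of siFOXA1 1 and 85.5 bp from that of siFOXA1 2, with 58.4% and 56.0% of the centres within 100 bp. For regions of all 4 libraries these medians were 88 and 91.75 bp. The siNS 2 peaks covered a median of 81.9% and 80.0% of the siFOXA1 peak. At regions of all 4 libraries, where siNS 2 peaks had a median width of 831.5 bp, both medians were 100%. At the regions described here, the best-scoring siNS 2 peak shared no base with the best of siFOXA1 1 at 35 and with that of siFOXA1 2 at 16. Peaks were 438 bp wide in siNS 2, 402 bp in siFOXA1 1 and 426 bp in siFOXA1 2 (medians). The merged regions had a median width of 614 bp (quartiles 501 and 770), against 962.5 bp for regions of all 4 libraries and 460 bp for those of both siFOXA1 libraries alone.

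Most regions lay more than 10 kb from any siNS 1 peak, so few were near the overlap limit of 1 bp. Distance does not show how near siNS 1 came to its calling threshold at the regions. The median distance to the nearest siNS 1 peak was 32622.5 bp. It was at most 100 bp at 6 regions, at most 1 kb at 102 (4.56%) and at most 10 kb at 550 (24.6%). Regions of both siFOXA1 libraries alone were farther from siNS 1, with a median of 62064.5 bp and 15.3% at most 10 kb away. From the mirror regions to the nearest siNS 2 peak the median was 29070 bp. Just inside the limit, with a gap of 2 bp to siNS 1, was a region in ABCA4, a retinoid transporter gene (chromosome 1, 94036771 to 94037344). The next were inside IRAG1 (37 bp), CAMK4 (70 bp) and PRKCH (71 bp) and near CCDC190 (80 bp). Just outside the limit were regions of all 4 libraries in which siNS 1 shared few bases with the other peaks: 11 bp near BLID, 18 bp in LDLRAD4, 36 bp at S100A12, 47 bp near RAP1B and 50 bp near PRDM15. The lowest siNS 2 score among the 2236 regions was 2.76, close to the lowest of that whole list, 2.03.

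Few regions lay near gene ends. Of the 2236, 52 lay within 1 kb of either end of a protein-coding gene, which is 2.33% (1.74 to 3.04%), where 21.2% of all merged regions did. Within 5 kb the share was 8.94%, and without siNS 1 in the rule, which lets in the regions of all 4 libraries, it was 7.26% within 1 kb. An annotated gene start was covered by 15 of the 2085 regions on chromosomes other than 8 (0.719%, 0.403 to 1.18%), against 13.3% of all merged regions there. Gene starts on chromosome 8 were not used here. The median distance to a gene start was 77046 bp. Genes were overlapped by 985 regions (44.1%, 42.0 to 46.1%), 712 (31.8%) lay outside genes with one within 100 kb, and 539 (24.1%, 22.3 to 25.9%) had no protein-coding gene within 100 kb. Whether a region inside a gene is exonic or intronic was not determined.

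By position they stood between the regions of all 4 libraries and those of both siFOXA1 libraries alone. Regions of both siFOXA1 libraries alone lay near a gene end in 1.10% of cases, mirror regions in 2.35% (2 of 85), regions of all 4 libraries in 12.1% and regions of both siNS libraries alone in 48.1%. No protein-coding gene lay within 100 kb of 33.5%, 30.6%, 10.3% and 3.68% of them, in that order. The median distance to a gene start was 134484 bp for regions of both siFOXA1 libraries alone, 34248.5 bp for those of all 4 libraries and 4032 bp for those of both siNS libraries alone. Absence from siNS 1 is part of the rule, and regions found in siNS 1 alone lay near a gene end more often (17.2%) than those found in siNS 2 alone (7.98%). The part of the rule in these differences was not tested.

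**Figure D4:**
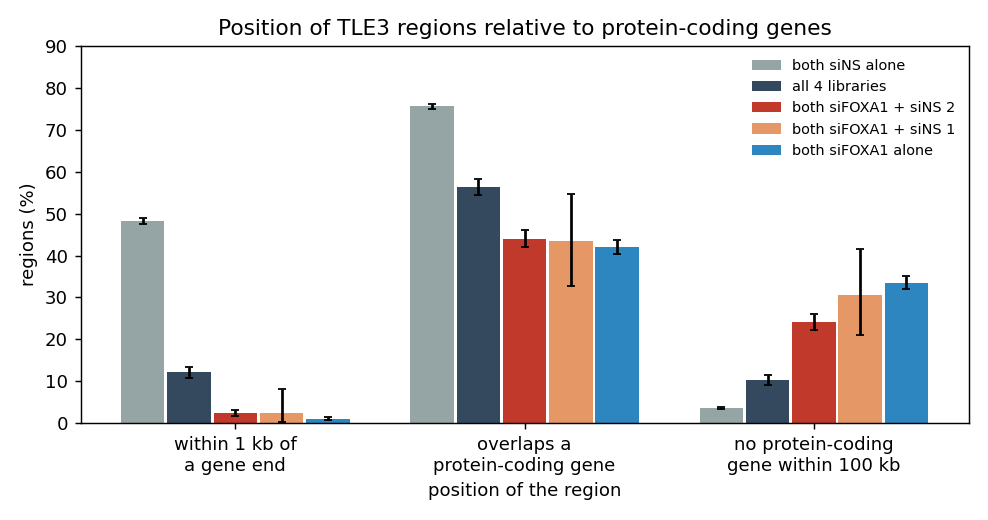
Share of regions (y axis, percent) by position relative to protein-coding genes (x axis), with exact 95% binomial intervals, for 5 classes of region. The regions of both siFOXA1 libraries with siNS 2 stand at 2.33% near gene ends and 24.1% without a gene within 100 kb, between the regions of all 4 libraries and those of both siFOXA1 libraries alone.

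The regions were spread over all chromosomes used. Their share of the regions with both siFOXA1 peaks was lowest on chromosome 19, with 22 of 136 (16.2%, 10.4 to 23.5%), and highest on chromosome X, with 84 of 247 (34.0%, 28.1 to 40.3%). The share of regions of all 4 libraries varied far more, from 11.5% on chromosome 4 to 75.7% on chromosome 19. Both are shares of the same regions, so a high share of either class leaves less for the other. Regions of all 4 libraries numbered 103 on chromosome 19 and 45 on chromosome X, and those of both siFOXA1 libraries alone 11 and 116. Chromosome 8 held 151 of the regions (33.1% of its 456) and chromosome 1 the largest number, 246 (27.0% of 911).

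**Figure D5:**
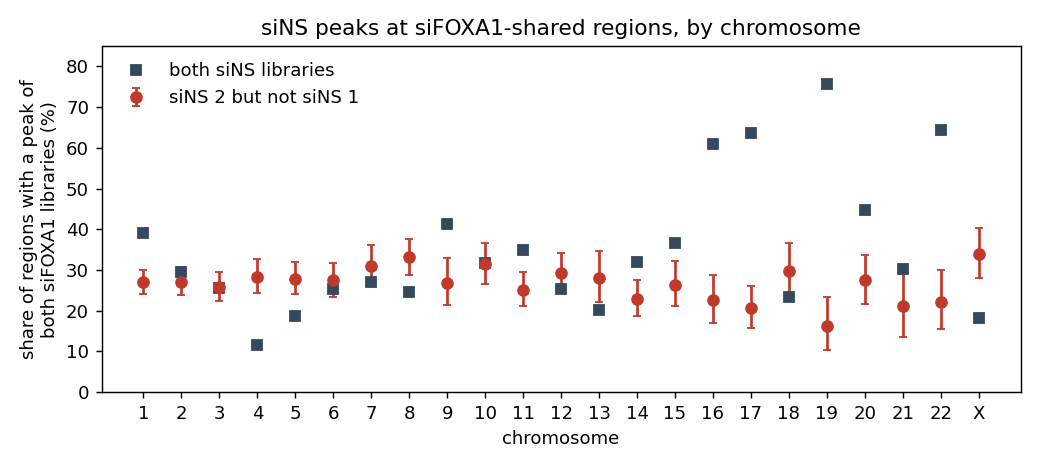
For each chromosome (x axis), the share of regions with both siFOXA1 peaks (y axis, percent) that also had a peak of siNS 2 but not siNS 1 (circles, exact 95% binomial intervals) or of both siNS libraries (squares). The circles range from 16.2% to 34.0% and the squares from 11.5% to 75.7%.

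Of the 10 highest-ranking regions, 7 lay outside protein-coding genes. The first by mean percentile over the 3 lists was 6529 bp outside NR5A2, which encodes a nuclear receptor (chromosome 1, 200183944 to 200184758). It scored 213 in siNS 2, 240 in siFOXA1 1 and 256 in siFOXA1 2. The nearest siNS 1 peak was 117377 bp away. The second was 49800 bp outside SEMA6D, which encodes a transmembrane semaphorin (chromosome 15, 47824028 to 47824859), and scored 205, 203 and 279 in the same order. The third was 59672 bp outside RALGAPA2, which encodes a GTPase-activating subunit for Ral proteins (chromosome 20, 20772316 to 20773159), with 230, 188 and 173. All 3 were above the 99th percentile of every list that holds them.

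Of the other 7 among the 10 highest, 3 were inside genes. That in LYPD6, a GPI-anchored Ly6-family gene, scored 141, 192 and 284 in siNS 2, siFOXA1 1 and siFOXA1 2. The region in NHS on chromosome X (17613986 to 17614797) scored 328, 68.4 and 80.4 in the same order, at percentiles of 99.7, 97.8 and 97.9. That in CMTM7 scored 102, 120 and 194. One region was 23981 bp outside ACER3, an alkaline ceramidase gene, with 116, 241 and 233. The last 3, on chromosomes 21, 6 and 3, were farther than 100 kb from any protein-coding gene. The one on chromosome 21 (35677260 to 35678218) scored 328, 115 and 155. Across these 10 regions the nearest siNS 1 peak was between 5464 bp (CMTM7) and 405593 bp away. By percentile, siNS 2 stood below both siFOXA1 libraries at 6 of the 10, above both at 3 and between them at 1.

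Among the 85 mirror regions, the first by mean percentile, inside SLC35F4 (chromosome 14, 57818429 to 57819128), scored 22.9 in siNS 1, at percentile 72.1, and 102 and 96.8 in the siFOXA1 lists. The one inside USP44, a ubiquitin protease gene, scored 11.5 in siNS 1 and 117 and 139 in siFOXA1, at percentiles of 54.5, 99.3 and 99.4.

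Genes were linked to the regions by position only, each region going to the protein-coding gene that holds it or is nearest within 100 kb. The 1697 regions so assigned belonged to 1388 of 19970 genes (6.95%), of which 1151 had 1, 181 had 2 and 56 had 3 or more. Genes with a region inside had a median span of 155 kb, against 24.2 kb for all protein-coding genes. Long genes offer more positions to any region, and no such span was taken for the other classes. The counts below are not adjusted for span. AUTS2, SEMA6D and KALRN, a guanine nucleotide exchange factor gene, had 5 regions each. RORA, a nuclear receptor gene, KCNMA1, which encodes a potassium channel, LDLRAD3, ZNF532, PITPNC1, MACROD2 and VAV3, another exchange factor gene, had 4 each.

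The leading genes differed in what lay around the regions. AUTS2 (chromosome 7, 69598475 to 70793506) held all 5 of its regions inside its span of 1195 kb, beside 5 regions of both siFOXA1 libraries alone, 7 of both siNS libraries alone and none of all 4 libraries. Their scores ran from 12.4 to 46.0 in siNS 2, 12.1 to 33.6 in siFOXA1 1 and 13.1 to 42.0 in siFOXA1 2. In KALRN (chromosome 3, 124033369 to 124726325) 1 of the 5 regions stood out in the siFOXA1 lists, with scores of 240 and 221. These lay at percentiles 99.9 and 99.8, and its score of 47.9 in siNS 2 lay at percentile 88.4. The other 4 KALRN regions scored 4.78 to 23.8 in siFOXA1 1. SEMA6D had 4 regions inside the gene besides the one named above, and no region of all 4 libraries or of both siFOXA1 libraries alone. KCNMA1 combined 4 regions with 4 of all 4 libraries and 12 of both siNS libraries alone.

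Among luminal identity genes, 8 of 30 (26.7%) had such a region, with 13 regions in all. The lists here were fixed for this cell type with earlier results of the same data known, were not tested, and are read against the 6.95% of all genes. The median number of regions per gene was 0 in every list and the median span of the luminal genes was 25.4 kb. EHF, an epithelial ETS factor, had 4 regions and no region of both siNS libraries alone. The one inside EHF (chromosome 11, 34654818 to 34655396) scored 52.8 in siNS 2, 15.1 in siFOXA1 1 and 13.0 in siFOXA1 2. The other 3 EHF regions lay 81867 to 93778 bp outside the gene, and 1 of them had the lowest siNS 2 score of all 2236, 2.76, beside 19.4 and 23.7 in the siFOXA1 lists. GATA3, the luminal zinc finger factor, had 2 regions, 45929 and 53282 bp outside the gene, which scored 5.31 and 12.0 in siNS 2, 12.9 and 26.2 in siFOXA1 1, and 21.7 and 36.5 in siFOXA1 2. GRHL2, a grainyhead factor of epithelia, had 2 inside its span. ERBB4, MYB, KLF5, XBP1 and TFAP2A had 1 each.

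Androgen response and apocrine genes had a region in 7 of 30 cases (23.3%), with 2 at ELL2, an elongation factor gene, and 1 each at genes that include PMEPA1, NDRG1, CLDN8, PIP and AZGP1. The median span of the androgen response and apocrine genes was 39.9 kb. PIP, which encodes an apocrine secretory protein, had no region of all 4 libraries, of both siFOXA1 libraries alone or of both siNS libraries alone. Groucho/TLE and corepressor genes had one in 6 of 28 cases (21.4%). TLE3 itself (chromosome 15, 70047790 to 70097917) had 2, at 59469 and 29340 bp outside the gene, which scored 67.3 and 74.7 in siNS 2 and between 9.75 and 20.9 in the siFOXA1 lists. By percentile these 2 stood at 92.8 and 93.9 in siNS 2, 65.3 and 51.7 in siFOXA1 1, and 79.6 and 57.1 in siFOXA1 2. TBL1XR1 and RCOR1, subunits of corepressor complexes, had 2 each, and HDAC5, CTBP2 and TLE4 had 1 each. Corepressor genes had a median span of 96.2 kb. FOXA1 (chromosome 14, 37589552 to 37595249) had no such region, 1 of all 4 libraries and 3 of both siNS libraries alone.

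In the remaining lists a smaller share of the genes had such a region. The shares of the oestrogen response, basal, HER2 and neuronal lists were still above the 6.95% of all genes. Those of the Wnt, Notch, cell cycle and ribosomal protein lists were below it. Oestrogen response genes, of median span 36.5 kb, had a region in 3 of 25 cases (12.0%), with 2 at CA12, a carbonic anhydrase gene, and 1 each at PKIB and SIAH2. Basal and mesenchymal genes and the list of HER2, receptor tyrosine kinases and ERK feedback had one in 4 of 30 each (13.3%). The former were TP63 and TGFB2 with 2 and FN1 and SPARC with 1, and the latter PIK3R1, AREG, DUSP6 and SPRED2 with 1. Wnt genes had one in 2 of 30 (6.67%): ZNRF3, with 2, and RNF43, with 1, encode ubiquitin ligases that remove Frizzled receptors. Of 28 Notch genes only RBPJ, the DNA-binding factor of the pathway, had one (3.57%). Of 26 neuronal genes 4 had one (15.4%), with 4 at CNTNAP2 and 3 at NRXN3, both cell adhesion genes, and this list had a median span of 265 kb. None of the 32 cell cycle genes and none of the 34 ribosomal protein genes had one; their median spans were 17.0 and 4.60 kb.

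The other classes are given first for 6 of the lists, the 3 hormone and luminal lists, cell cycle, ribosomal protein and neuronal genes, in that order. Corepressor, Notch, Wnt, HER2 and basal genes follow. Regions of all 4 libraries, which 9.06% of all genes had, were assigned to 43.3% of luminal identity genes, 40% of androgen response genes, 44% of oestrogen response genes, 6.25% of cell cycle genes, 5.88% of ribosomal protein genes and 19.2% of neuronal genes. Like the class described here, they were above their share of all genes in the luminal, androgen response, oestrogen response and neuronal lists. In the cell cycle and ribosomal protein lists both classes were below it. Regions of both siFOXA1 libraries alone (7.89% of genes) were assigned to 6 of 30 luminal identity, 3 of 30 androgen response, 2 of 25 oestrogen response, 1 of 32 cell cycle, 0 of 34 ribosomal protein and 12 of 26 neuronal genes. In each of these 6 lists they too stood on the same side of their share of all genes. For oestrogen response genes the 8% was close to that share. Regions of both siNS libraries alone (58.5% of genes) were assigned to 24, 21, 20, 22, 30 and 13 of them. Of corepressor genes, 32.1% had a region of all 4 libraries, 10.7% one of both siFOXA1 libraries alone and 96.4% one of both siNS libraries alone. For Notch genes these shares were 25%, 17.9% and 78.6%, and for Wnt genes 20%, 16.7% and 90%. They were 26.7%, 16.7% and 90% for the HER2 list, and 20%, 13.3% and 73.3% for basal and mesenchymal genes. Differences between classes were not tested.

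Most regions stood apart from others of their own class, and 236 (10.6%) lay at most 20 kb from another. Peaks outside the class were not counted here, and no such share was taken for other classes. With a gap of at most 20 kb between neighbours, 2000 regions were single, 107 runs held 2, 6 held 3 and 1 held 4. The run of 4 spanned 28.2 kb on chromosome 9 (38186337 to 38214495), farther than 100 kb from any protein-coding gene, and its siNS 2 scores were 74.2, 9.16, 12.8 and 11.3. That run also contained 3 regions with a siNS 1 peak. A run on chromosome 17 (56162693 to 56171958) inside ANKFN1 held 3 regions within 9.27 kb and no siNS 1 peak, with siNS 2 scores of 19.5, 54.8 and 6.15.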

How the data were processed

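TLE3 ChIP-seq peaks of 4 libraries (siNS 1 and 2, siFOXA1 1 and 2) were used; groups and replicate numbers came from the sample titles. For siFOXA1 2 the name of the deposited list and the title give different numbers, and the title was followed. The 2 inputs, whose labels name another cell line, were not analysed here, and how they entered peak calling is not given in the sources used. The authors deposited 1 list per library with positions and a score per peak, whose definition is not stated. MACS2, BWA 0.7.5a, Trim Galore and SAMtools are named, with hg38, per the submitters' processing notes. Such a list shows where a threshold was passed, so absence from siNS 1 means that no peak was called there, and the read signal below the threshold is unknown. A peak list gives no depth, and scores were compared as percentiles within a list. Mitochondrial peaks (3 to 9 per list) were left out.

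Overlapping peaks were merged, and each region was described by the lists that hold a peak. Positions are 1-based on hg38. Gene spans and starts came from RefSeq tables on GRCh38.p14 (19970 protein-coding genes, 15711 of them with a start window), and all 323 symbols of the 11 gene lists matched. No genome sequence was used, so the motif search planned around region centres was made only in the 250 bases before gene starts. The regions of 1 gene of the lists are counted but not reported here by name. Shares carry exact (Clopper-Pearson) 95% binomial intervals. No test over libraries was made, because the regions are present in 1 control library and absent from the other by choice. Genes and regions named follow a rule: the 10 highest by mean percentile, the 10 genes with the most regions, up to 3 genes of each list with the most, those nearest the limit of the rule, up to 10 covering a gene start, runs, mirror regions, FOXA1 and TLE3; the other starts, further list genes and single regions of named genes were named after their values were seen. Only some of the leading runs and mirror regions are described. Those left out lie farther than 100 kb from any protein-coding gene, and some rank above the ones at ANKFN1 and USP44. The regions, lists, motifs and alternatives were chosen with earlier results of these data known. The code recovered all 15 combinations in 6000 simulated regions and gave the same 72272 regions, 2236 members and distances as bedtools 2.31.1. Python 3.11.15, numpy 2.4.6, pandas 2.3.3, scipy 1.17.1 and matplotlib 3.10.9 were used.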

Additional observations from a re-analysis of the deposited data

How the results depend on the processing

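The asymmetry between the control libraries kept its direction under each of the 7 alternatives that give both classes. The ratio of the class described here to its mirror was 26.3 in the report. Among the alternatives it ranged from 21.97 without siFOXA1 1 to 32.5 with 50% of the stretch shared by the siFOXA1 peaks covered. All alternatives use peaks of the same lists that define the classes, so they describe the processing and are no independent support. Keeping only the upper part of each list, from its median score up, the classes held 1133 and 41 regions. When a library was left out, the count was 2951 to 4837 and the mirror count 108 to 140 (140 without siFOXA1 1). The share of siFOXA1 regions was 22.5 to 58.9%, that near gene ends 2.30 to 7.26%, that in genes 45.0 to 50.6% and the median siNS 2 percentile 63.8 to 85.4; each highest value is without siNS 1, where regions of all 4 libraries join. Without siNS 2 no such region can be defined. The share of siFOXA1 regions, 27.3% in the report, was 25.8% with peaks above the median, 19.1% with lists of equal length, 24.98% with 50% coverage and 26.0% with no siNS 1 peak within 1 kb. Near gene ends lay 3.14% with lists of equal length, 1.48% within 500 bp and 8.94% within 5 kb, and 48.3% were in genes with lists of equal length. The median siNS 2 percentile was 82.8 with peaks above the median, 88.9 with lists of equal length and 71.7 with 50% coverage. The first and second of these remove low-scoring peaks by construction, and for the last the cause was not tested. No paired analysis was possible because no result comes from a test over libraries. Each result rests on 4 lists without reads, so a weak siNS 1 signal below the calling threshold cannot be told from none.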
